A study of Mus musculus with 16 samples.

Results

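The response to BMP4 was compared between mouse trophectoderm stem cells (TSC) and mouse induced pluripotent stem cells (iPSC) that had each been cultured alone. The comparison rests on 8 of the 16 libraries of the study, with 2 libraries in each of 4 groups: TSC with BMP4, TSC without BMP4, iPSC with BMP4 and iPSC without BMP4. The other 8 libraries came from structures in which TSC and iPSC had been mixed and had assembled. TSC carried RFP and iPSC carried GFP. All groups, untreated ones included, grew on 5% Matrigel in a medium with serum, 12.5 ng/ml of FGF4 and 500 ng/ml of heparin. Colonies were collected on day 3, and the treated ones had received BMP4 over the final 24 hours. The sources used here state no BMP4 dose. RNA was read by Smart-seq2, a full-length cDNA method for small samples, from 1 picked colony per library. The labels do not give strains or say how many lines stand behind each cell type, and nothing in them tells whether a group's replicates are separate cultures. The p-values below therefore measure only the spread between these libraries, which may be technical.

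BMP4 is a secreted ligand that binds paired type I and type II receptors and signals through SMAD1, SMAD5 and SMAD9 together with SMAD4 to genes such as those of the Id family. In the early mouse embryo the extraembryonic ectoderm, the tissue of trophoblast stem cells, makes BMP4, and the epiblast next to it answers with genes of the primitive streak. Trophoblast stem cells depend on FGF4 and heparin, which act through ERK, and are marked by Eomes, Elf5, Cdx2 and Esrrb. When they leave that state they take up placental programmes with genes such as Plac1, Dlx3 and Gata2.

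For each gene, the quantity of interest is a difference of differences: TSC with BMP4 minus TSC, less iPSC with BMP4 minus iPSC, on the log2(FPKM + 1) scale. A positive value means that the BMP4 response lay higher in TSC than in iPSC. FPKM, the deposited unit, divides fragments by transcript length and by the size of the library, and adding 1 before the logarithm understates the change of genes at low levels. A gene was tested if 2 or more of the 16 libraries held 1 FPKM or more of it, which left 13406 of 31663 entries. The test was limma, fitted to all 16 libraries as group means so that groups of 2 share an estimate of spread. The threshold was an adjusted p of 0.05, with the Benjamini-Hochberg method over all genes tested. Differences are given ± the standard error from limma. Where the call of a difference printed with its standard error depended on 1 of the 8 lone libraries, the text adds the highest limma adjusted p (for a call lost) or the lowest (for a call gained) among the 8 fits that each leave out 1 of them, with the library left out.

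By summed lineage markers the 8 lone libraries matched the lineage in their labels, while some genes that mark the stem cell state were at or near 0 in untreated TSC. The summed level of 14 trophoblast markers was 3452 and 2972 FPKM in TSC with BMP4, 14150.0 and 8956 in TSC, 424 and 942 in iPSC with BMP4, and 268 and 174 in iPSC. In untreated TSC most of this sum came from Phlda2, an imprinted placental gene, at 6773 and 4650 FPKM, and from Krt8 and Krt18. Of the stem cell genes, Eomes was at 0.219 and 0.0844 FPKM in untreated TSC, Esrrb at 0 and 0.140, Cdx2 at 0 and 3.89, and Elf5 at 5.51 and 11.6, so that Eomes, Esrrb and, in replicate 1, Cdx2 were at or near 0 there. Other listed genes of trophoblast stem cells or extraembryonic ectoderm were abundant there, such as Rhox6 (8183 and 4481 FPKM) and Tfap2c (140.5 and 99.4). That list summed to 13001 and 8026 FPKM in TSC and to 3734 and 4264 in TSC with BMP4. Of its 28 tested genes, 19 lay higher on average with BMP4 in TSC and 9 lower. The TSC of the labels are therefore trophoblast by these values, and the stem cell name is that of the labels. The sum of 12 pluripotency markers was 505 and 273 FPKM in TSC with BMP4, 197 and 296 in TSC, 1237 and 923 in iPSC with BMP4, and 1306 and 1344 in iPSC. In TSC most of this sum was Utf1, at 403 and 151 FPKM with BMP4 and 168 and 247 without. Utf1 was also high in iPSC, at 511 and 379 FPKM with BMP4 and 446 and 541 without. In the TSC libraries Pou5f1 reached at most 1.03 FPKM and Nanog at most 1.58. Replicate 2 of iPSC with BMP4 therefore held more trophoblast-marker RNA than replicate 1, with Plac1 at 0.323 FPKM in replicate 1 and 7.03 FPKM in replicate 2, although Elf5 stayed at 0 and 0.283 FPKM there. In bulk colonies a change in the share of cells of a type and a change in RNA per cell cannot be told apart. No marker of fibroblasts or of endothelium passed 4.04 FPKM in any of these libraries. Replicates lay over 2-fold apart for 1262 genes in TSC with BMP4 and 2083 in TSC, and for 651 in iPSC with BMP4 and 454 in iPSC. The share of FPKM in mitochondrial genes was 1.29% and 3.53% in TSC with BMP4, 7.81% and 4.57% in TSC, 1.77% and 2.39% in iPSC with BMP4, and 3.51% and 3.60% in iPSC. Xist, the RNA of the inactive X chromosome, ran from 3.15 to 12.7 FPKM in TSC libraries and reached at most 0.228 in iPSC libraries, whereas the Y-linked Eif2s3y ran from 20.1 to 34.7 FPKM in iPSC libraries. Lineage and sex of the line thus cannot be told apart in this comparison.

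Most genes whose BMP4 response separated the lineages had changed in TSC. The difference passed the threshold in 374 of 13406 genes (2.79%), with the response higher in TSC for 191 (1.42%) and lower in TSC for 183 (1.37%). The median difference over all genes was -0.017. Within TSC alone BMP4 changed 1625 genes (12.1%), 856 up (6.39%) and 769 down (5.74%). Within iPSC alone it changed 8 genes (0.0597%), 3 up (0.0224%) and 5 down (0.0373%), with 842 at an unadjusted limma p under 0.05. These 2 counts assume 1 spread per gene for all groups, although replicates lay further apart in TSC than in iPSC. With library weights, which let libraries differ in spread, the counts were 428 in TSC and 132 in iPSC. The TSC term, meaning the response within TSC, passed for 330 of the 374 genes and was the larger in size for 333. The iPSC term passed for 8 and was the larger for 41. Among the 191 genes on the higher side, the median response was 2.15 in TSC and -0.26 in iPSC. Among the 183 on the lower side, it was -1.69 in TSC and 0.44 in iPSC.

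The count of 374 depended on single libraries. It was 56 without replicate 2 of iPSC with BMP4, 58 and 63 without replicate 1 and replicate 2 of iPSC, 147 without replicate 1 of iPSC with BMP4 and 148 without replicate 1 of TSC with BMP4. It was 165, of which 108 higher and 57 lower, when the spread came from the 8 lone libraries only. The call held without any single one of the 8 libraries for 49 genes, 36 higher and 13 lower. The count within TSC was 569 without replicate 1 of TSC with BMP4 and 428 with library weights. The count within iPSC was 3 without replicate 1 of iPSC, 79 with no filter and 132 with library weights. The 4 treated-minus-untreated library differences of TSC did not overlap the 4 of iPSC in 4659 genes (34.8% of those tested), a share that includes all 374. At the threshold, Cks1b, a cell cycle subunit, lay just inside (difference 1.59, limma adjusted p = 0.0499). Just outside lay Gata2, a factor of trophoblast differentiation (-3.81, limma adjusted p = 0.0510), and Dppa4, a gene of pluripotent cells (1.96, limma adjusted p = 0.0512).

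**Figure D1:**
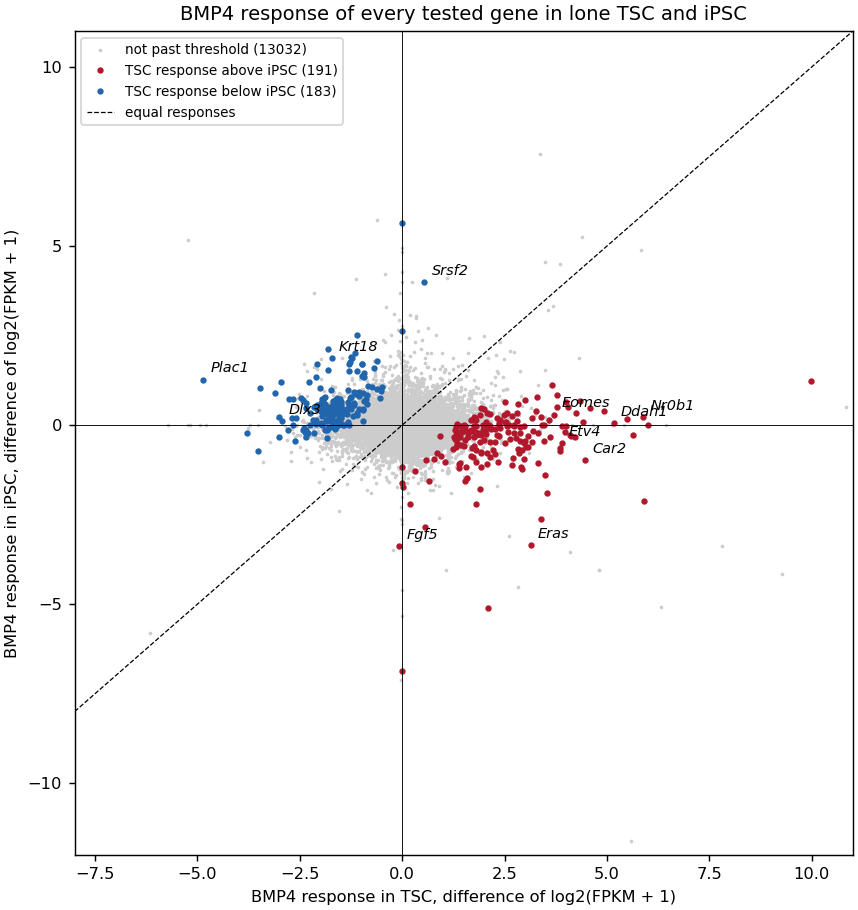
BMP4 response in lone iPSC (vertical axis) against that in lone TSC (horizontal axis) for the 13406 tested genes, each as the treated-minus-untreated difference of log2(FPKM + 1). Most coloured genes lie close to the horizontal axis, far to the right (191 genes with the higher response in TSC) or to the left (183 genes with the lower response in TSC), and Fgf5, Eras and Srsf2 are named examples away from that axis.

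In levels, untreated TSC and iPSC stood apart at these genes and the treated cultures stood closer. Of the 191 genes on the higher side, TSC lay above iPSC in 137 with BMP4 and in 12 without it. Of the 183 on the lower side, TSC lay above iPSC in 104 with BMP4 and in 175 without it. The size of the TSC-to-iPSC gap on the log2 scale was smaller with BMP4 than without in 296 of the 374 genes, with a median of 0.74 with BMP4 and 2.00 without. Over all tested genes the gap was smaller with BMP4 in 62.3%, with medians of 0.49 with BMP4 and 0.67 without. These 374 were chosen by a difference that contains both gaps, so the comparison with all genes is a description.

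The 12 leading genes on the higher side were Eras, Duoxa2, Nr0b1, Car2, Pcsk1n, Inpp1, Ddah1, Rpph1, Prps1, Fuom, Mest and Upp1, with differences from 6.49 to 4.50. They include genes of pluripotent cells, enzymes of nucleotide and inositol metabolism and an imprinted gene. Eras, a constitutively active Ras-like protein of embryonic stem cells, stood at 10.0 and 6.98 FPKM in TSC with BMP4, 0 and 0.131 in TSC, 2.78 and 1.09 in iPSC with BMP4, and 28.8 and 26.6 in iPSC. BMP4 raised it in TSC, where untreated libraries were at or near 0, and it lay lower in both treated iPSC libraries than in either untreated one (6.49 ± 0.83, limma adjusted p = 0.00223). Its iPSC term alone did not pass (-3.35 ± 0.59, limma adjusted p = 0.0883). Nr0b1, an orphan nuclear receptor of pluripotent cells also called Dax1, stood at 26.8 and 141 FPKM in TSC with BMP4, 0.0476 and 0.0705 in TSC, 0.444 and 0.827 in iPSC with BMP4, and 0.459 and 0.316 in iPSC. It was high only in the treated TSC libraries, which differed from each other by over 5-fold (5.66 ± 0.97, limma adjusted p = 0.0123, and up to 0.0666 without replicate 1 of iPSC).

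Duoxa2, the maturation factor of the oxidase Duox2, stood at 59.2 and 49.5 FPKM in TSC with BMP4, 0 and 0.245 in TSC, 0.0643 and 0 in iPSC with BMP4, and 0.472 and 0.0728 in iPSC. The treated TSC libraries stood far above the other 6, all of them under 0.5 FPKM (5.91 ± 0.51, limma adjusted p = 1.16e-04). Inpp1, an inositol polyphosphate phosphatase, stood at 59.3 and 76.1 FPKM in TSC with BMP4, 0.106 and 1.08 in TSC, 2.77 and 3.19 in iPSC with BMP4, and 2.31 and 2.82 in iPSC. Treated TSC lay far above all 6 other libraries, and the iPSC groups overlapped (5.33 ± 0.45, limma adjusted p = 1.16e-04).

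Ddah1, which breaks down asymmetric dimethylarginine, stood at 78.6 and 111 FPKM in TSC with BMP4, 1.94 and 1.35 in TSC, 7.12 and 8.94 in iPSC with BMP4, and 7.74 and 7.58 in iPSC. Both iPSC groups lay between 7.12 and 8.94 FPKM, untreated TSC below them and treated TSC above them (5.11 ± 0.73, limma adjusted p = 0.00433). Upp1, a uridine phosphorylase, stood at 240.2 and 305 FPKM in TSC with BMP4, 13 and 24.4 in TSC, 65.1 and 71.8 in iPSC with BMP4, and 117 and 100.3 in iPSC. The level rose in TSC and was lower in treated than in untreated iPSC libraries (4.50 ± 0.54, limma adjusted p = 0.00134). Untreated TSC formed the low group in each of these genes.

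Prps1, which makes the phosphoribosyl precursor of nucleotides, stood at 44.2 and 42.2 FPKM in TSC with BMP4, 1.11 and 3.43 in TSC, 39.6 and 42.9 in iPSC with BMP4, and 70.1 and 68.5 in iPSC. Treated TSC reached the level of treated iPSC, and untreated TSC stayed under 4 FPKM (4.59 ± 0.50, limma adjusted p = 8.51e-04). Car2, a carbonic anhydrase, stood at 366 and 469 FPKM in TSC with BMP4, 14 and 22.8 in TSC, 196 and 152 in iPSC with BMP4, and 419.8 and 281 in iPSC. It rose in TSC and lay lower in both treated iPSC libraries than in either untreated one (5.45 ± 0.55, limma adjusted p = 5.96e-04). Fuom, a fucose mutarotase, stood at 20.5 and 23 FPKM in TSC with BMP4, 0.468 and 0 in TSC, 13.3 and 17.3 in iPSC with BMP4, and 22.5 and 17 in iPSC. It was near 0 in untreated TSC, and the 6 other libraries overlapped (4.58 ± 0.67, limma adjusted p = 0.00476).

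Mest, an imprinted gene expressed from the paternal allele, stood at 112 and 160.3 FPKM in TSC with BMP4, 0.600 and 11.2 in TSC, 169 and 171 in iPSC with BMP4, and 123 and 137 in iPSC. The 2 untreated TSC libraries disagreed by over 10-fold, and the treated ones lay within the range of the iPSC libraries or just below it (4.54 ± 0.92, limma adjusted p = 0.0247, and up to 0.101 without replicate 2 of iPSC with BMP4). Pcsk1n, a secreted inhibitor of a proprotein convertase, stood at 58 and 85.9 FPKM in TSC with BMP4, 4.18 and 6.44 in TSC, 5.91 and 3.90 in iPSC with BMP4, and 25.1 and 16.7 in iPSC. Treated TSC stood above all other libraries, and treated iPSC below untreated iPSC (5.41 ± 1.03, limma adjusted p = 0.0210, and up to 0.0936 without replicate 2 of iPSC with BMP4). Rpph1, the noncoding RNA of ribonuclease P, was not caught by the filter on small RNA names. It stood at 98 and 76.7 FPKM in TSC with BMP4, 13.2 and 3.34 in TSC, 2.60 and 1.5 in iPSC with BMP4, and 8.05 and 5.87 in iPSC. Its treated TSC libraries were likewise the highest and its treated iPSC libraries the lowest (4.88 ± 0.81, limma adjusted p = 0.0104, and up to 0.0626 without replicate 1 of iPSC).

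The 11 leading genes given here on the lower side were Plac1, Dkkl1, Elf3, Peg10, Rab20, Krt18, Serpinb9b, Ifi27, Efnb1, Srsf2 and Mras, with differences from -6.13 to -3.39. They hold placental and keratin genes that were abundant in untreated TSC. Plac1, a placenta-specific gene needed for normal placental growth, stood at 16 and 14.2 FPKM in TSC with BMP4, 745 and 293 in TSC, 0.323 and 7.03 in iPSC with BMP4, and 0.396 and 0.310 in iPSC. Treated TSC fell far below untreated TSC, and in iPSC replicate 2 with BMP4 stood alone above the other 3 libraries (-6.13 ± 1.10, limma adjusted p = 0.0154, and up to 0.0694 without replicate 1 of iPSC). Peg10, an imprinted retrotransposon-derived gene the placenta needs, stood at 34.6 and 56 FPKM in TSC with BMP4, 152 and 163 in TSC, 34.9 and 49.8 in iPSC with BMP4, and 6.70 and 11.5 in iPSC. It fell in TSC and lay higher in both treated iPSC libraries than in either untreated one (-3.93 ± 0.77, limma adjusted p = 0.0232, and up to 0.101 without replicate 2 of iPSC with BMP4).

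Krt18, a keratin of simple epithelia and trophoblast, stood at 704 and 656 FPKM in TSC with BMP4, 2947 and 1705 in TSC, 163 and 415 in iPSC with BMP4, and 83.5 and 58.9 in iPSC. The treated TSC libraries lay below the untreated ones and the treated iPSC libraries above the untreated ones (-3.60 ± 0.62, limma adjusted p = 0.0126, and up to 0.0732 without replicate 2 of iPSC). Its partner keratin Krt8 had the same order of groups and did not pass (-3.82 ± 1.01, limma adjusted p = 0.0635).

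Efnb1, the ligand ephrin-B1, stood at 1.44 and 1.68 FPKM in TSC with BMP4, 9.83 and 13.3 in TSC, 1.33 and 2.03 in iPSC with BMP4, and 0.144 and 0.164 in iPSC. It fell in TSC and stood near 0 in untreated iPSC (-3.49 ± 0.41, limma adjusted p = 0.00134). Serpinb9b, an intracellular serpin, stood at 2.65 and 3.59 FPKM in TSC with BMP4, 76.5 and 39.9 in TSC, 0.0290 and 0.645 in iPSC with BMP4, and 0.665 and 0.394 in iPSC. It fell in TSC and stayed under 1 FPKM in all 4 iPSC libraries (-3.55 ± 0.50, limma adjusted p = 0.00408). Efnb1 and Serpinb9b passed in all 8 fits without a library, as did Eras, Duoxa2, Car2, Inpp1, Ddah1, Prps1, Fuom and Upp1 among the leading genes, and the other leading genes passed in 1 to 7 of them.

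Dkkl1, a secreted relative of the Dickkopf family, stood at 14.6 and 28.1 FPKM in TSC with BMP4, 249.9 and 224 in TSC, 3.37 and 12.2 in iPSC with BMP4, and 2.98 and 2.41 in iPSC. It fell in TSC and, in iPSC, only replicate 2 with BMP4 stood apart (-4.52 ± 0.83, limma adjusted p = 0.0170, and up to 0.0780 without replicate 2 of iPSC with BMP4). Elf3, an epithelial ETS factor, stood at 21.8 and 28.1 FPKM in TSC with BMP4, 305 and 158 in TSC, 11.2 and 30.0 in iPSC with BMP4, and 9.45 and 9.34 in iPSC. The pattern was that of Dkkl1, with treated TSC at the level of replicate 2 of iPSC with BMP4 (-4.0 ± 0.73, limma adjusted p = 0.0164, and up to 0.0775 without replicate 2 of iPSC with BMP4). Rab20, a small GTPase, stood at 5.21 and 9.27 FPKM in TSC with BMP4, 30.5 and 35.8 in TSC, 1.5 and 9.13 in iPSC with BMP4, and 0.529 and 0.576 in iPSC, and it too fell in TSC and was high in that iPSC library (-3.79 ± 0.88, limma adjusted p = 0.0413, and up to 0.164 without replicate 2 of iPSC with BMP4). Ifi27, an interferon-induced gene (-3.50 ± 0.75, limma adjusted p = 0.0302, and up to 0.137 without replicate 2 of iPSC with BMP4), and Mras, a Ras-like GTPase (-3.39 ± 0.68, limma adjusted p = 0.0247, and up to 0.110 without replicate 2 of iPSC with BMP4), fell in TSC and stayed under 2 FPKM in all 4 iPSC libraries. Dkkl1, Elf3 and Rab20 thus stood higher in replicate 2 of iPSC with BMP4 than in replicate 1. The trophoblast-marker sum of that library was 942 FPKM, against 424 in replicate 1. This sum holds lower-side genes such as Plac1 and Krt18, so it is not independent of them. Most of the 14 trophoblast markers were higher in replicate 2. Gata2 stood at 2.86 FPKM in replicate 1 and 11.2 in replicate 2, and Esx1 at 2.65 and 19.4. Phlda2 hardly differed, at 61.5 and 62.0 FPKM. Of these markers only Dlx3 lay lower, at 0.875 FPKM in replicate 1 and 0.811 in replicate 2. The part of that RNA in these differences was not tested. Leaving replicate 2 out leaves 1 library in its group, so a changed count without it cannot show the part of this RNA.

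**Figure D2:**
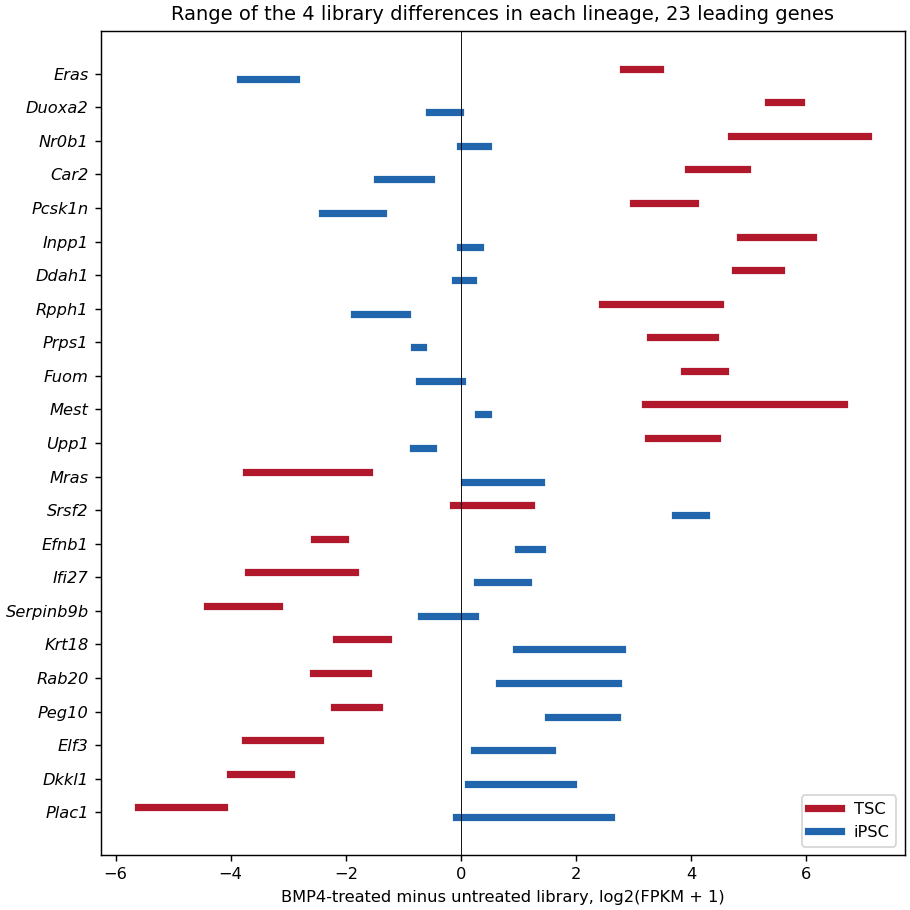
Range of the 4 treated-minus-untreated library differences of log2(FPKM + 1) in TSC (red) and in iPSC (blue) for the 23 leading genes, ordered by the difference between lineages. The ranges do not overlap for any gene, which the choice of genes required, and Srsf2 is the leading gene whose iPSC range lies far from 0 while its TSC range spans 0.

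Eomes rose with BMP4 in TSC and separated the lineages, and most other genes of the trophoblast stem cell state did not pass. Of 31 listed genes for trophoblast stem cells or extraembryonic ectoderm 28 were tested, of which 2 had the higher response in TSC (Ddah1 and Eomes) and 2 the lower (Gata3 and Tfap2c), against 1.42% higher and 1.37% lower of all tested genes. The median difference was 0.69, against -0.017 over all genes. Their median response was 1.04 in TSC and 0.30 in iPSC, and in TSC alone 11 of the 28 rose and 2 fell, against 6.39% and 5.74% of all tested genes. Without 1 library, 2 passed on the higher side and 0 to 3 on the lower side. Eomes, a T-box factor of trophoblast stem cells that also acts in the primitive streak, stood at 14.3 and 13.7 FPKM in TSC with BMP4, 0.219 and 0.0844 in TSC, 2.85 and 3.04 in iPSC with BMP4, and 2.41 and 2.03 in iPSC. Treated TSC lay above all others, untreated TSC near 0, and both iPSC groups between 2.03 and 3.04 FPKM (3.41 ± 0.50, limma adjusted p = 0.00476). Elf5, an ETS factor of trophoblast stem cells, stood at 153 and 130.3 FPKM in TSC with BMP4, 5.51 and 11.6 in TSC, 0 and 0.283 in iPSC with BMP4, and 0.213 and 0.413 in iPSC. BMP4 raised it in TSC (3.97 ± 1.12, limma adjusted p = 0.0363), but the difference between lineages did not pass (4.18 ± 1.58, limma adjusted p = 0.179).

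Esrrb, an orphan receptor of the same state, stood at 7.79 and 9.83 FPKM in TSC with BMP4 and 0 and 0.140 FPKM in TSC. It rose (3.19 ± 0.68, limma adjusted p = 0.0105), and its difference did not pass (3.03 ± 0.96, limma adjusted p = 0.111). Sox2, which trophoblast stem cells share with pluripotent cells, rose likewise in TSC (2.52 ± 0.61, limma adjusted p = 0.0192) with a difference of 2.28 (limma adjusted p = 0.182). Cdx2, the caudal factor that specifies trophectoderm, stood at 2.73 and 6.24 FPKM in TSC with BMP4, 0 and 3.89 in TSC, 1.99 and 6.16 in iPSC with BMP4, and 0.277 and 0.245 in iPSC. The TSC groups overlapped and no term of Cdx2 passed (difference -0.64 ± 0.87, limma adjusted p = 0.743). Bmp4 itself, which trophoblast makes, stood at 16.4 and 13.8 FPKM in TSC with BMP4, 0.267 and 0.623 in TSC, 0.876 and 16.5 in iPSC with BMP4, and 1.02 and 0.925 in iPSC. The TSC term passed (3.48 ± 0.82, limma adjusted p = 0.0170), while 1 treated iPSC library stood at 16.5 FPKM and the other below 1, and the difference did not pass (1.94 ± 1.16, limma adjusted p = 0.393).

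Genes of differentiated trophoblast that passed all had the lower response in TSC. Of 29 listed genes 20 were tested, of which 0 had the higher response in TSC and 4 the lower (Plac1, Peg10, Krt18 and Dlx3), against 1.42% and 1.37% of all tested genes, with 0 and 1 of 20 without replicate 2 of iPSC with BMP4 and 0 and 2 without either replicate of iPSC. With 1 other library left out it was 0 and 3 to 0 and 6. The median difference was -2.87, the median response -1.93 in TSC and 0.50 in iPSC. In TSC alone 8 of the 20 fell and 0 rose, at a background of 5.74% and 6.39%. Dlx3, a homeobox factor of the labyrinth, stood at 12.7 and 7.93 FPKM in TSC with BMP4, 87.2 and 81 in TSC, 0.875 and 0.811 in iPSC with BMP4, and 1.07 and 0.413 in iPSC. The treated TSC libraries lay far below the untreated ones, and no iPSC library passed 1.07 FPKM (-3.05 ± 0.43, limma adjusted p = 0.00408). Gata3, which acts in trophectoderm and later trophoblast, stood at 14 and 17.7 FPKM in TSC with BMP4, 47 and 34.3 in TSC, 1.07 and 6.42 in iPSC with BMP4, and 0.163 and 0.227 in iPSC. Its difference passed (-3.01 ± 0.68, limma adjusted p = 0.0364, and up to 0.120 without replicate 1 of iPSC), though neither term did, and in iPSC the treated replicates lay 6-fold apart. Gata2, Gata1, Dlx3, Tfap2c and other GATA, AP-2 and Dlx factors formed a list of 20 with 10 tested, of which 1 passed on the higher side (Gata1) and 3 on the lower side (Dlx3, Gata3 and Tfap2c). Their median difference was -1.63, and -0.21 when genes were not filtered on level.

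Tfap2c, the AP-2 factor of trophectoderm and germ cells, stood at 44.7 and 77.4 FPKM in TSC with BMP4, 140.5 and 99.4 in TSC, 5.90 and 13.8 in iPSC with BMP4, and 1.39 and 2.99 in iPSC. The treated TSC libraries lay below the untreated ones, the treated iPSC libraries above the untreated ones, and only the difference passed (-2.70 ± 0.55, limma adjusted p = 0.0247, and up to 0.108 without replicate 2 of iPSC with BMP4). Hand1, a factor of giant cells and extraembryonic mesoderm, stood at 301 and 211 FPKM in TSC with BMP4, 149.6 and 288 in TSC, 2.78 and 16.8 in iPSC with BMP4, and 1.33 and 0.696 in iPSC. The TSC groups overlapped and its difference did not pass (-1.76 ± 1.29, limma adjusted p = 0.498). Igf2, the imprinted placental growth factor, stayed abundant in TSC, at 578 and 327 FPKM in TSC with BMP4 and 1345 and 1104 FPKM in TSC, and did not pass either (-2.29 ± 1.51, limma adjusted p = 0.445). The giant cell and spongiotrophoblast genes Prl3d1, Prl3b1, Ctsq and Tpbpa were listed at 0 in all 8 lone libraries.

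**Figure D3:**
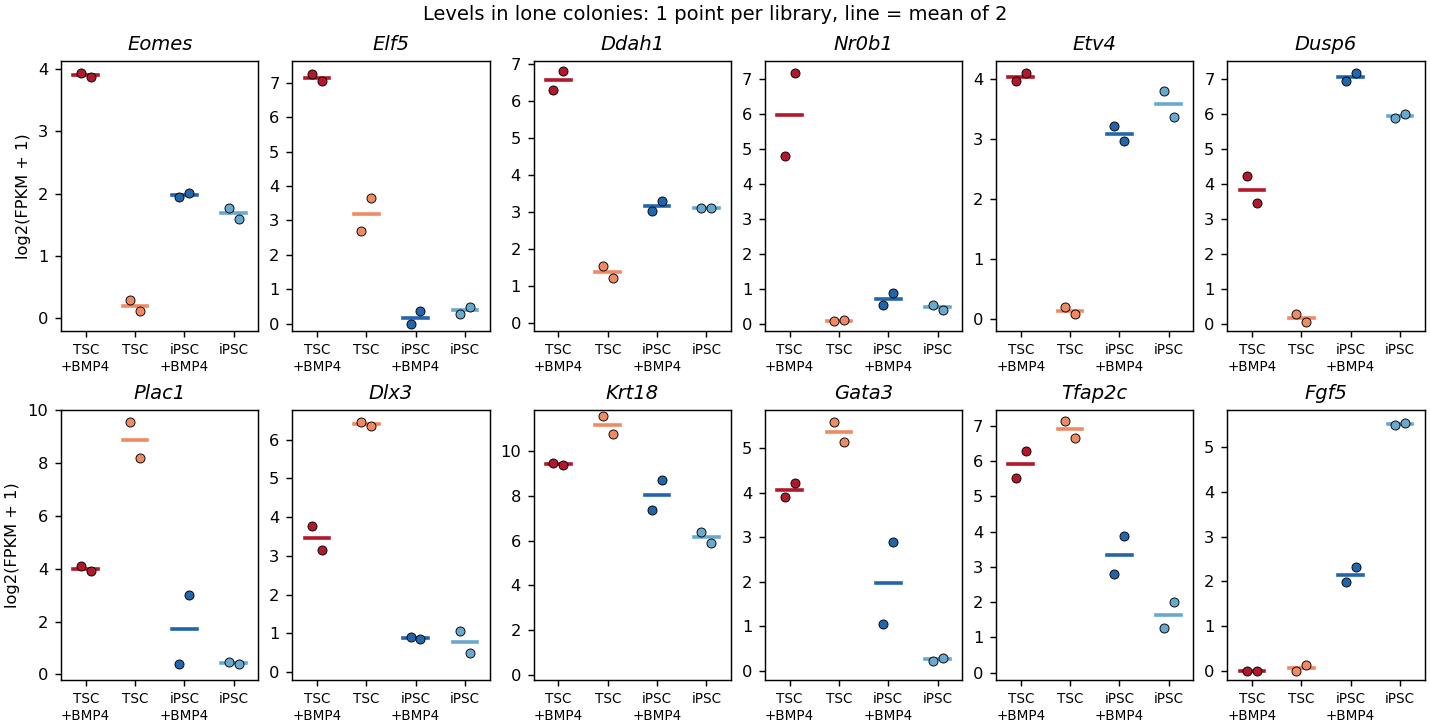
Levels of 12 genes in lone colonies as log2(FPKM + 1), 1 point per library and a line at the mean of 2, with TSC with BMP4, TSC, iPSC with BMP4 and iPSC from left to right. Eomes, Elf5, Ddah1, Nr0b1, Etv4 and Dusp6 lie higher in TSC with BMP4 than in TSC, Plac1, Dlx3, Krt18, Gata3 and Tfap2c lie lower, and Fgf5 differs only between the iPSC groups.

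Targets and feedback genes of FGF-ERK signalling, such as phosphatases and Sprouty proteins that restrain ERK, held several calls on the higher side. Of 20 listed and tested genes, 6 had the higher response in TSC (Etv4, Etv5, Dusp6, Spry1, Spry2 and Fosl1) and 2 the lower (Myc and Dusp5), against 1.42% and 1.37% of all tested genes. The median difference was 1.57, with a median response of 1.80 in TSC and 0.21 in iPSC. In TSC alone 10 of the 20 rose and 1 fell, against 6.39% and 5.74% of all tested genes. Without 1 library, 2 to 4 genes passed on the higher side and 0 on the lower side, and the median difference ran from 1.31 to 1.75.

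Etv4, an ETS factor downstream of FGF receptors, stood at 14.6 and 16.1 FPKM in TSC with BMP4, 0.143 and 0.0528 in TSC, 8.25 and 6.82 in iPSC with BMP4, and 13 and 9.30 in iPSC. Untreated TSC were near 0, treated TSC lay above every iPSC library, and the iPSC groups differed less (4.39 ± 0.52, limma adjusted p = 0.00134). Etv5, its close relative, stood at 8.64 and 18 FPKM in TSC with BMP4, 0.0640 and 0.208 in TSC, 45.3 and 56 in iPSC with BMP4, and 48.7 and 43 in iPSC. It too was near 0 in untreated TSC, but treated TSC stayed below all iPSC libraries (3.44 ± 0.53, limma adjusted p = 0.00648). Dusp6, the phosphatase that inactivates ERK, stood at 17.5 and 10.0 FPKM in TSC with BMP4, 0.206 and 0.0433 in TSC, 121 and 141 in iPSC with BMP4, and 57.3 and 62.5 in iPSC. The TSC term passed (3.67 ± 0.43, limma adjusted p = 4.01e-04), and the level lay higher in both treated iPSC libraries than in the untreated ones, so the difference was smaller than the TSC term (2.56 ± 0.61, limma adjusted p = 0.0461, and up to 0.152 without replicate 1 of TSC with BMP4).

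Spry2, a Sprouty inhibitor of receptor tyrosine kinase signalling, stood at 8.39 and 7.86 FPKM in TSC with BMP4, 0.477 and 0.599 in TSC, 19.7 and 12.9 in iPSC with BMP4, and 12.3 and 21 in iPSC. The iPSC groups overlapped (2.58 ± 0.54, limma adjusted p = 0.0280, and up to 0.131 without replicate 2 of iPSC with BMP4). Spry1, of the same family, rose in TSC and passed (1.73 ± 0.38, limma adjusted p = 0.0329, and up to 0.126 without replicate 2 of iPSC), as did Fosl1, an AP-1 subunit (2.99 ± 0.63, limma adjusted p = 0.0289, and up to 0.125 without replicate 1 of iPSC).

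Myc, a growth-promoting factor, stood at 63.9 and 55.2 FPKM in TSC with BMP4, 138 and 112 in TSC, 53.3 and 38 in iPSC with BMP4, and 21 and 30.6 in iPSC. Its treated libraries lay below the untreated ones in TSC and above them in iPSC (-1.86 ± 0.45, limma adjusted p = 0.0472, and up to 0.170 without replicate 1 of iPSC). Dusp5, another ERK phosphatase, stood at 4.56 and 3.61 FPKM in TSC with BMP4, 6.65 and 7.68 in TSC, 8.92 and 6.50 in iPSC with BMP4, and 2.33 and 1.46 in iPSC, in the same order (-2.28 ± 0.52, limma adjusted p = 0.0378, and up to 0.145 without replicate 2 of iPSC). Neither Myc nor Dusp5 passed in any fit without a library. Ccnd1, the G1 cyclin, rose in TSC (3.25 ± 0.53, limma adjusted p = 0.00257) with a difference just outside the threshold (2.97 ± 0.75, limma adjusted p = 0.0544).

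The promoters of 2 genes on the lower side (Gata3 and Krt18) and of 2 on the higher side (Etv5 and Spry2) are shown because Tfap2c, an AP-2 factor, and Etv4 and Etv5, which are ETS factors, were themselves among the genes that passed. Each line gives the 250 bases before the start site on the gene's own strand, 5′ to 3′, from RefSeq on GRCm38.p6, with matches in capitals to an AP-2 pattern, GCCNNNGGC, and to an ETS core, CCGGAA, on either strand. The AP-2 pattern reads the same on both strands, so each position is counted once.
Gata3, chr2:9878601-9878850, minus strand: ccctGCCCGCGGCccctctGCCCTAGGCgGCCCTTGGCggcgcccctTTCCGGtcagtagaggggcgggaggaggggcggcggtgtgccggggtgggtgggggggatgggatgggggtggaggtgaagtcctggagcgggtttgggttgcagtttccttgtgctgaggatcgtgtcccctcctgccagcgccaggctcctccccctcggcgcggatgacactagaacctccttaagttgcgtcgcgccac
Krt18, chr15:102027966-102028215, plus strand: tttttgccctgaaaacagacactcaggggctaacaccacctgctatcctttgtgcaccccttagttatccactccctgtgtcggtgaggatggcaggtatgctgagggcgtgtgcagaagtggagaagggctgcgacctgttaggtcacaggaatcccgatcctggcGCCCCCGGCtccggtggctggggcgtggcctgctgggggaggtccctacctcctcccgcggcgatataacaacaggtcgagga
Etv5, chr16:22439571-22439820, minus strand: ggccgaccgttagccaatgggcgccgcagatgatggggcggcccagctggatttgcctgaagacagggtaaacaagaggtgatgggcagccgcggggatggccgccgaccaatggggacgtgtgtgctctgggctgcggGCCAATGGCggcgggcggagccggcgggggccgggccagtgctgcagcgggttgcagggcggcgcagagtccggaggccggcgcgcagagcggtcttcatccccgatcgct
Spry2, chr14:105896820-105897069, minus strand: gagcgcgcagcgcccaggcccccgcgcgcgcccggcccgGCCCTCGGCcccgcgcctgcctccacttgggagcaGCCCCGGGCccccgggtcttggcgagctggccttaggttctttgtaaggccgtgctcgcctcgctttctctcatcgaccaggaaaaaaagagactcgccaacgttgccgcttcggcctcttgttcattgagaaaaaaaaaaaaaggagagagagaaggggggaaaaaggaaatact

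The Gata3 window held 3 AP-2 matches, starting at -246, -231 and -221 from the start site, and 1 ETS match at -203. Krt18 held 1 AP-2 match at -83, Etv5 1 at -111, and Spry2 2 at -211 and -176, and none of these 3 windows held the ETS letters. Among genes that passed and had a listed promoter, the AP-2 pattern occurred in 27.4% of 135 on the higher side and 24.4% of 135 on the lower side, against 21.1% of 9424 tested genes and 13.6% of all 27025 promoters. The ETS core occurred in 13.3% on the higher side and 19.3% on the lower side, against 23.1% of tested genes and 12.2% of all promoters. A match is a run of letters and says nothing of binding.

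Genes of the formative and primed epiblast also held several calls on the higher side. Of 21 listed genes 18 were tested, of which 5 had the higher response in TSC (Etv4, Etv5, Zic5, Dnmt3b and Fgf5) and 0 the lower, against 1.42% and 1.37% of all tested genes. When a library was left out, it was 3 to 5 and 0 to 1. Etv4 and Etv5 also stand in the list of FGF-ERK targets. The median difference was 1.15, and the median response 0.13 in TSC and -0.69 in iPSC. Zic5, a zinc finger factor of the epiblast, stood at 7.31 and 11.3 FPKM in TSC with BMP4, 0.0167 and 0 in TSC, 3.72 and 0.772 in iPSC with BMP4, and 3.92 and 6.34 in iPSC. Treated TSC stood above all other libraries and untreated TSC at or near 0 (4.38 ± 0.58, limma adjusted p = 0.00264). Dnmt3b, a de novo DNA methyltransferase of the epiblast, stood at 40.1 and 49.7 FPKM in TSC with BMP4, 8.90 and 3.92 in TSC, 125 and 66 in iPSC with BMP4, and 174 and 174 in iPSC. Treated libraries lay above untreated ones in TSC and below them in iPSC (3.64 ± 0.65, limma adjusted p = 0.0154, and up to 0.0795 without replicate 2 of iPSC with BMP4).

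Fgf5, a growth factor that marks the postimplantation epiblast, stood at 0 and 0 FPKM in TSC with BMP4, 0 and 0.0979 in TSC, 2.94 and 4.01 in iPSC with BMP4, and 44.3 and 45.9 in iPSC. It was listed at or near 0 in TSC and fell in iPSC (-3.38 ± 0.47, limma adjusted p = 0.0181), so that the difference lay on the higher side (3.31 ± 0.67, limma adjusted p = 0.0247, and up to 0.0923 without replicate 2 of iPSC) with a TSC term of -0.067. Otx2, an epiblast and anterior factor, was listed at 0 in all 4 TSC libraries and stood at 4.44 and 4.74 FPKM in iPSC with BMP4 and 13.8 and 16.6 FPKM in iPSC, a difference that did not pass (1.53 ± 0.68, limma adjusted p = 0.252).

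Pou5f1 and Nanog, factors that hold the pluripotent state, had overlapping groups in each lineage. Of 14 listed core pluripotency genes 13 were tested by limma and 0 passed in either direction, with 0 to 1 on the higher side and 0 on the lower side when a library was left out. With 2.79% of all tested genes passing, a count of 0 among 13 does not set the list apart. Pou5f1, also known as Oct4, stood at 0.397 and 0.754 FPKM in TSC with BMP4, 0.0335 and 1.03 in TSC, 299 and 175 in iPSC with BMP4, and 326 and 219 in iPSC (0.34 ± 0.92, limma adjusted p = 0.885). Nanog stood at 0.612 and 0.719 FPKM in TSC with BMP4, 0.355 and 1.58 in TSC, 34.3 and 33 in iPSC with BMP4, and 27.5 and 37.4 in iPSC (-0.23 ± 0.75, limma adjusted p = 0.906). Of 16 naive pluripotency genes, Nr0b1 passed on the higher side and 0 on the lower side.

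Direct BMP-SMAD target genes had mostly positive BMP4 terms in both lineages. Of 16 listed targets 12 were tested, and all 12 had positive iPSC terms, with a median of 0.99, and 9 of 12 had positive TSC terms, with a median of 0.29. Between lineages limma called 0 of the 12 in either direction, and at most 1 on the higher side and 3 on the lower side when a library was left out. At a share of 2.79% over all tested genes, a count of 0 among 12 does not set the targets apart. The median difference was -0.91, and it ran from -1.23 to -0.43 without 1 library. Id1, an inhibitor of basic helix-loop-helix factors and an early SMAD target, stood at 61.8 and 42.7 FPKM in TSC with BMP4, 7.16 and 105 in TSC, 303 and 332 in iPSC with BMP4, and 44.9 and 65.2 in iPSC. The treated iPSC libraries lay over 4-fold above the untreated ones, while the untreated TSC libraries, at 7.16 and 105 FPKM, enclosed the treated ones (-1.70 ± 1.24, limma adjusted p = 0.498, but 0.0434 without replicate 1 of TSC).

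Id2, of the same family, stood at 1538 and 854 FPKM in TSC with BMP4, 110.2 and 269.9 in TSC, 142 and 224 in iPSC with BMP4, and 52.3 and 34.2 in iPSC. Treated libraries lay above untreated ones in both lineages, with a TSC term that passed (2.72 ± 0.42, limma adjusted p = 0.00178) and an iPSC term of 2.05 that did not. The difference between lineages did not pass (0.67 ± 0.59, limma adjusted p = 0.580). Id3 stood at 45.3 and 16 FPKM in TSC with BMP4, 13.5 and 37.6 in TSC, 161 and 208 in iPSC with BMP4, and 91.1 and 92 in iPSC. Only the iPSC groups of Id3 did not overlap, and no term passed (difference -0.74 ± 1.08, limma adjusted p = 0.762). Bambi, a decoy receptor induced by BMP, stood at 9.12 and 15.4 FPKM in TSC with BMP4, 1.76 and 0.0231 in TSC, 5.35 and 6.64 in iPSC with BMP4, and 3.24 and 4.42 in iPSC. Its TSC term passed (2.94 ± 0.42, limma adjusted p = 0.00134), with a difference just outside the threshold (2.40 ± 0.59, limma adjusted p = 0.0512, but 0.0103 without replicate 1 of TSC). Smad6, an inhibitory SMAD, rose in TSC (1.10 ± 0.30, limma adjusted p = 0.0321) and had a difference of 0.31 that did not pass.

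Msx2, a homeobox target, stood at 21.9 and 39.3 FPKM in TSC with BMP4, 8.16 and 63.2 in TSC, 6.46 and 19.6 in iPSC with BMP4, and 0.795 and 0.357 in iPSC. The treated iPSC libraries stood above the untreated ones and the TSC groups overlapped (-2.66 ± 1.10, limma adjusted p = 0.217, but 0.0416 without replicate 1 of TSC). Msx1, its paralog, was likewise higher in treated than in untreated iPSC libraries, at 23.2 and 60.3 FPKM in iPSC with BMP4 and 2.31 and 0.526 FPKM in iPSC, without passing (-3.0 ± 1.09, limma adjusted p = 0.162). Of 26 ligands, receptors, SMADs and antagonists of the pathway 17 were tested by limma, and 0 passed between lineages, also without any 1 library, at the same share of 2.79% over all genes. Bmpr1a, a type I receptor, fell in TSC (-1.13 ± 0.31, limma adjusted p = 0.0318), as did Smad1 (-1.38 ± 0.41, limma adjusted p = 0.0458), and their differences did not pass (-1.31 and -1.38). Of 14 tested genes of the Nodal pathway 1 passed in each direction. Smad2, which carries Nodal rather than BMP signals, did pass on the lower side (-1.29 ± 0.30, limma adjusted p = 0.0441, and up to 0.174 without replicate 2 of iPSC with BMP4), and Foxh1, its partner at Nodal targets, passed on the higher side (4.39 ± 0.63, limma adjusted p = 0.00463). Foxh1 stood at 64.6 and 47.7 FPKM in TSC with BMP4, 0.834 and 4.86 in TSC, 95.2 and 84.4 in iPSC with BMP4, and 124 and 96.1 in iPSC.

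Primitive streak genes lay mostly higher in treated than in untreated iPSC. Of 28 listed genes 22 were tested, of which Eomes passed on the higher side and 0 on the lower side, against 1.42% and 1.37% of all tested genes. In iPSC 19 of 22 had positive terms, with a median of 0.95, against 0.051 over all genes. In TSC 14 of 22 did, with a median of 0.22, against 0.023 over all genes. Their iPSC terms passed in 0 of 22, which does not set the list apart at 0.0597% of all tested genes. T (Brachyury), the T-box factor of the streak, stood at 0.381 and 0.162 FPKM in TSC with BMP4, 0.924 and 0.490 in TSC, 172 and 270.3 in iPSC with BMP4, and 44.6 and 39.6 in iPSC. The treated iPSC libraries lay over 3-fold above the untreated ones, TSC stayed under 1 FPKM, and no term passed (difference -2.75 ± 1.19, limma adjusted p = 0.238). Mixl1, a homeobox factor of the streak, stood at 1.39 and 1.11 FPKM in TSC with BMP4, 0.146 and 2.10 in TSC, 18.6 and 70.3 in iPSC with BMP4, and 1.09 and 1.59 in iPSC, with treated iPSC libraries nearly 4-fold apart (-3.76 ± 1.46, limma adjusted p = 0.189). Evx1 stood at 4.33 and 4.32 FPKM in iPSC with BMP4 and 0.486 and 0.502 FPKM in iPSC and did not pass (-1.86 ± 0.50, limma adjusted p = 0.0673). Its antisense neighbour Evx1os, chosen after its values were seen, stood at 15.3 and 23.5 FPKM in iPSC with BMP4 and 1.89 and 2.61 FPKM in iPSC and did pass, both in iPSC (2.63 ± 0.38, limma adjusted p = 0.0249) and between lineages (-2.63 ± 0.54, limma adjusted p = 0.0265, and up to 0.125 without replicate 2 of iPSC with BMP4). Where counting ignores strand, reads of Evx1 and Evx1os cannot be told apart.

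The iPSC term passed in 8 of the 374 genes. Fgf5, Spon1, Pcsk2 and Nrcam fell in iPSC, Srsf2 and Evx1os rose, and the 2 others carry predicted or small RNA names. Srsf2, an SR splicing factor, stood at 5.36 and 7.16 FPKM in TSC with BMP4, 2.50 and 6.02 in TSC, 65.2 and 54.3 in iPSC with BMP4, and 2.44 and 3.18 in iPSC. Both treated iPSC libraries passed 50 FPKM, and the TSC groups overlapped (-3.46 ± 0.58, limma adjusted p = 0.0104, and up to 0.0639 without replicate 1 of iPSC). Spon1, a secreted matrix protein of the nervous system, stood at 0.177 and 0.299 FPKM in TSC with BMP4, 0.141 and 0.0375 in TSC, 0.533 and 0.175 in iPSC with BMP4, and 5.83 and 4.65 in iPSC. The level fell in iPSC and stayed at or under 0.299 FPKM in TSC (2.40 ± 0.38, limma adjusted p = 0.00842, and up to 0.0599 without replicate 2 of iPSC with BMP4). Pcsk2, a prohormone convertase, stood at 0.0391 and 0 FPKM in iPSC with BMP4 and 2.06 and 2.22 FPKM in iPSC (1.61 ± 0.30, limma adjusted p = 0.0196, and up to 0.0844 without replicate 2 of iPSC with BMP4). Nrcam, a neuronal adhesion molecule, stood at 0.430 and 0.191 FPKM in iPSC with BMP4 and 4.61 and 2.35 FPKM in iPSC (1.75 ± 0.39, limma adjusted p = 0.0344, and up to 0.142 without replicate 2 of iPSC with BMP4). Both were near 0 in TSC. Spon1, Pcsk2, Nrcam and Evx1os were chosen after their values were seen.

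Keratin and junction genes mostly had negative TSC terms, and few of them separated the lineages. Of 24 listed 21 were tested, of which 0 passed on the higher side and 2 on the lower side, against 1.42% and 1.37% of all tested genes, with 0 to 2 on the lower side when a library was left out. Their median difference was -1.46, the median response -1.21 in TSC and 0.29 in iPSC, and 20 of 21 had negative TSC terms. The genes that passed were Krt18 and Esrp2, a splicing factor of epithelia (-2.68 ± 0.57, limma adjusted p = 0.0297, and up to 0.121 without replicate 2 of iPSC). Of 19 tested interferon and antigen presentation genes, 1 passed on the higher side (B2m) and 4 on the lower side, at the same shares over all genes, among them Isg15 (-3.35 ± 0.71, limma adjusted p = 0.0280, and up to 0.116 without replicate 2 of iPSC), Rsad2 (-1.52 ± 0.34, limma adjusted p = 0.0346, and up to 0.133 without replicate 2 of iPSC with BMP4) and Bst2 (-1.74 ± 0.43, limma adjusted p = 0.0495, and up to 0.182 without replicate 2 of iPSC). B2m, the light chain of class I molecules, stood at 374 and 339 FPKM in TSC with BMP4, 89.4 and 172 in TSC, 76.7 and 85.2 in iPSC with BMP4, and 91.6 and 83.2 in iPSC, highest in treated TSC (1.62 ± 0.39, limma adjusted p = 0.0478, and up to 0.157 without replicate 1 of iPSC). Without 1 library, 0 to 1 of the interferon genes passed on the higher side and 0 to 6 on the lower side.

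Of 13 tested genes of DNA methylation, Dnmt3b and Zfp57 passed on the higher side and Dnmt1 on the lower side, against 1.42% and 1.37% of all tested genes. Zfp57, a zinc finger protein that keeps imprints methylated, stood at 24.4 and 24 FPKM in TSC with BMP4, 2.32 and 4.87 in TSC, 8.13 and 10.7 in iPSC with BMP4, and 10.8 and 16.8 in iPSC. Treated TSC stood above every other library, and treated iPSC lay below untreated iPSC (3.0 ± 0.42, limma adjusted p = 0.00408). Zfp57 passed in all 8 fits without a library. Dnmt1, the maintenance methyltransferase, stood at 9.19 and 14.3 FPKM in TSC with BMP4, 45.4 and 34.9 in TSC, 18.8 and 14.5 in iPSC with BMP4, and 14.8 and 14.2 in iPSC. It fell in TSC toward the iPSC level (-1.88 ± 0.38, limma adjusted p = 0.0247, and up to 0.0983 without replicate 2 of iPSC). Of 15 immediate early genes, Fosl1 passed on the higher side, and Jund (-2.48 ± 0.50, limma adjusted p = 0.0242, and up to 0.102 without replicate 2 of iPSC with BMP4) and Atf3 (-2.83 ± 0.69, limma adjusted p = 0.0495, and up to 0.181 without replicate 2 of iPSC) on the lower side. Atf3 was also the 1 of 17 integrated stress response genes that passed.

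Gata1, a GATA factor best known from red blood cells, stood at 6.53 and 6.52 FPKM in TSC with BMP4, 0.735 and 0.199 in TSC, 0.885 and 0.156 in iPSC with BMP4, and 0.228 and 0.477 in iPSC. It was high only in treated TSC and passed (2.25 ± 0.45, limma adjusted p = 0.0237, and up to 0.113 without replicate 2 of iPSC with BMP4), while the globins Hba-a1 and Hba-a2 stayed at or under 1.78 FPKM in every lone library.

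The remaining lists held 0 to 2 calls each, where 1.42% of all tested genes passed on the higher side and 1.37% on the lower side. Of 22 tested genes of cholesterol synthesis, Cyp51 (2.11 ± 0.52, limma adjusted p = 0.0495, and up to 0.176 without replicate 2 of iPSC with BMP4) and Nsdhl (1.69 ± 0.40, limma adjusted p = 0.0431, and up to 0.166 without replicate 2 of iPSC) passed on the higher side and 0 on the lower side, with 0 to 5 and 0 to 1 when a library was left out. Of 28 cell cycle genes, the checkpoint kinase Bub1 passed on the higher side (1.54 ± 0.30, limma adjusted p = 0.0210, and up to 0.0906 without replicate 1 of iPSC). Of 20 p53 targets 1 passed on the higher side, Pmaip1, which encodes the cell death protein Noxa, at 3.59 and 10.7 FPKM in TSC with BMP4, 1.47 and 1.47 in TSC, 11.7 and 11.1 in iPSC with BMP4, and 33.5 and 34.1 in iPSC (3.06 ± 0.66, limma adjusted p = 0.0302, and up to 0.119 without replicate 2 of iPSC with BMP4). Of 20 tested imprinted genes Mest passed on the higher side and Peg10 on the lower side. Of 11 germ cell genes Tfap2c passed on the lower side, as did Myc of 20 Wnt genes, Mmp14 of 13 genes of mesenchyme (-1.98 ± 0.47, limma adjusted p = 0.0433, and up to 0.151 without replicate 2 of iPSC) and Krt14 of 5 genes of neural and surface ectoderm (-2.29 ± 0.51, limma adjusted p = 0.0339, and up to 0.128 without replicate 2 of iPSC with BMP4). For the lists of hypoxia and glycolysis, heat shock and unfolded protein response, Hippo-YAP targets, cytosolic ribosomal proteins, nuclear oxidative phosphorylation, extraembryonic mesoderm, primitive endoderm, Rhox genes and cleavage-stage genes, 0 members passed in either direction.

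**Figure D4:**
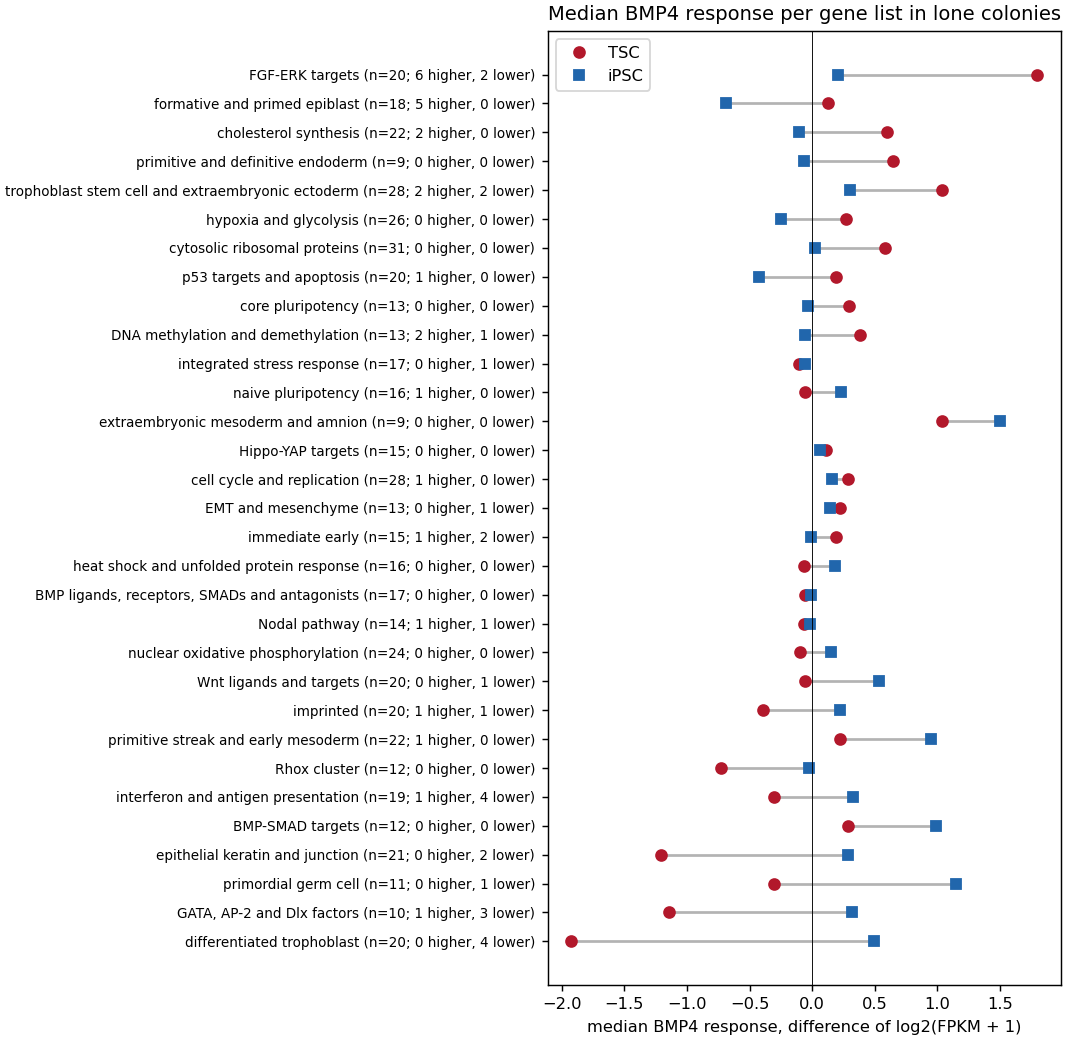
Median BMP4 response of each gene list with at least 9 tested members in lone TSC (red circles) and lone iPSC (blue squares), as a difference of log2(FPKM + 1), with the number of members whose difference between lineages passed the threshold on either side. FGF-ERK targets lie at the top (1.80 in TSC and 0.21 in iPSC) and differentiated trophoblast genes at the bottom (-1.93 in TSC and 0.50 in iPSC).

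The same TSC-to-iPSC difference was taken in the 8 libraries of assembled structures, in which the red TSC part and the green iPSC part had been separated by hand. By limma it passed in 10 genes (0.0746%), 7 on the higher (0.0522%) and 3 on the lower side (0.0224%), with 1153 at an unadjusted limma p under 0.05. Of these 10, 5 also passed in lone cells, with the same sign: Inpp1, Il5ra, Ubd, Crabp1 and Lpar6. These 5 are 1.34% of the 374. Apart from Inpp1, Ddah1, Eomes, Etv4 and Serpinb9b, the genes of this and the next paragraphs were chosen after their values were seen. In lone cells, Il5ra, a cytokine receptor subunit, stood at 4.69 and 9.10 FPKM in TSC with BMP4, 0.0493 and 0 in TSC, 0 and 0 in iPSC with BMP4, and 0.0583 and 0 in iPSC. It was high only in treated TSC (2.93 ± 0.49, limma adjusted p = 0.0104, and up to 0.0619 without replicate 1 of iPSC), and the assembled difference was 4.23 ± 0.49, limma adjusted p = 0.00356. Ubd, a ubiquitin-like modifier, stood in lone cells at 6.11 and 6.23 FPKM in TSC with BMP4, 0 and 0.159 in TSC, 0 and 0 in iPSC with BMP4, and 0 and 0 in iPSC. It too was high only in treated TSC (2.74 ± 0.38, limma adjusted p = 0.00366), with an assembled difference of 3.45 ± 0.38, limma adjusted p = 0.00248. Crabp1, a retinoic acid binding protein, had differences of 3.05 in lone cells and 2.98 in assembled parts. For Lpar6, a lysophosphatidic acid receptor, they were 2.50 and 2.77.

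Over the 374 genes the assembled difference had the sign of the lone one in 292 (78.1%), against 60.0% of all tested genes. Its median was 0.44 for the 191 genes on the higher side and -0.49 for the 183 on the lower side, against -0.094 over all genes. Markers of both lineages occurred in 2 assembled libraries, replicate 2 of the treated iPSC part and replicate 2 of the untreated TSC part. Without these 2 libraries the median assembled difference over all genes was -0.012. Their part in the assembled differences given here and below was not tested.

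A test of lone against assembled difference passed in 14 genes (0.104%), 11 with the larger value in lone cells (0.0821%) and 3 with the smaller (0.0224%), and 11 of the 14 were among the 374. The 374 are 2.79% of all tested genes. This test contains the lone difference by which the 374 were chosen, so the overlap of 11 is not separate support. Those of the 11 with gene names were Ddah1, Ak1, Etv4, Eomes, Tmem98, Limd2, Mboat7 and Serpinb9b. For Ddah1 the difference was 5.11 in lone cells and -1.57 in assembled parts (6.68 ± 1.03, limma adjusted p = 0.0270 for lone minus assembled). For Eomes it was 3.41 in lone cells and -1.17 in assembled parts (4.58 ± 0.71, limma adjusted p = 0.0270). For Etv4 it was 4.39 in lone cells and -0.29 in assembled parts (4.68 ± 0.74, limma adjusted p = 0.0313). The count of 14 was 5 without replicate 1 of lone iPSC and 29 without replicate 2 of lone TSC, the lowest and highest with 1 lone library left out, and 1144 genes had an unadjusted limma p under 0.05.

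Tmem98, a transmembrane protein, stood in lone cells at 34.6 and 28.6 FPKM in TSC with BMP4, 0.588 and 0.159 in TSC, 18.4 and 18.2 in iPSC with BMP4, and 12.7 and 13.1 in iPSC, and its lone minus assembled value was 4.06 ± 0.61, limma adjusted p = 0.0270. Ak1, an adenylate kinase, stood at 20.1 and 23 FPKM in TSC with BMP4, 1.11 and 2.83 in TSC, 18.2 and 17.3 in iPSC with BMP4, and 40.7 and 30.1 in iPSC, with a value of 4.89 ± 0.74, limma adjusted p = 0.0270. Limd2, a LIM domain protein, and Mboat7, a lysophospholipid acyltransferase, had values of 2.94 and 2.84. Serpinb9b had the smaller value in lone cells, at -3.55 in lone cells and 0.70 in assembled parts (-4.25 ± 0.71, limma adjusted p = 0.0441).

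**Figure D5:**
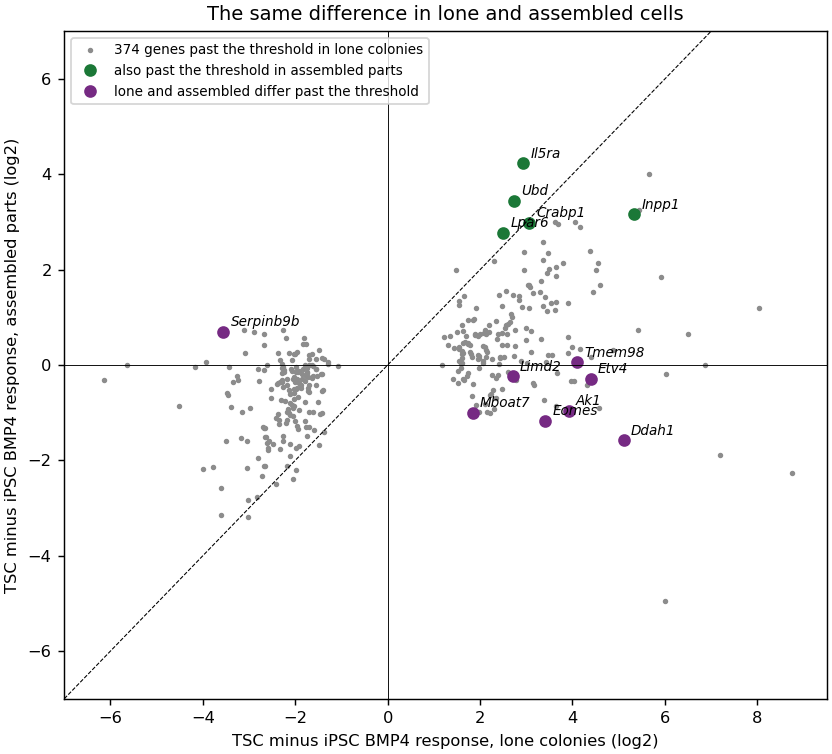
Difference in BMP4 response between TSC and iPSC in assembled parts (vertical axis) against that in lone colonies (horizontal axis), on the log2 scale, for the 374 genes that passed in lone colonies, with a dashed line of equality. Green genes also passed in assembled parts and lie near or above the line except Inpp1, and purple genes, in which lone and assembled differences differed past the threshold, lie near or across 0 on the vertical axis.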

How the data were processed

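The authors deposited a single table of FPKM for 31663 entries in 16 libraries; 12 entries share a symbol and were kept apart, and every sample column was used. The tools CASAVA and TopHat2 and the builds mm9 and hg19 stand in the submitters' processing notes without roles. Which program made the FPKM, from which annotation and with which strand setting, is not given in the sources used here. How reads of paralogs, overlapping or antisense genes were split is therefore unknown. Read depth is unknown too, and no counting interval or limit for a 0 can be given.

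Values were taken as log2(FPKM + 1), with genes kept at 1 FPKM or more in 2 or more libraries, and limma 3.58.1 (R 4.3.3) was the test (8 group means, trend, two-sided, 5 comparisons). Named genes are the 12 largest differences per direction that passed, did not overlap between lineages and reached a mean of 5 FPKM, without predicted or small RNA names, plus up to 4 members per gene list and 32 genes named whatever their result; others are said to be chosen after their values were seen, and 2 genes the rule names are not reported here. The members and lists were chosen with earlier results of these data known. On simulated data for the comparison of lone TSC and lone iPSC (13406 genes) it found 5 of the 67 genes given a 2-fold change, 41 of the 67 given 4-fold and 51 of the 66 given 8-fold. Wrong calls made up 3 of 100. The changed genes were drawn from those at about 5 FPKM or more in lone TSC. They were changed only in TSC with BMP4, on the log2(FPKM + 1) scale, with normally distributed noise. Recovery of genes near 0 in untreated TSC was therefore not simulated. The noise had 1 spread per gene in all groups, whereas real replicates lay further apart in TSC than in iPSC. The share of wrong calls under unlike spreads was thus not simulated either. Alternatives were a pseudocount of 0.1, other filters, quantile and upper quartile scaling, removal of predicted names, library weights, a replicate block, fewer libraries and a floor of 1 on the log2 scale. Promoters came from RefSeq on GRCm38.p6. Tables were made with pandas 2.3.3 and numpy 2.4.6 under Python 3.11.15, and figures with matplotlib 3.10.9.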

Additional observations from a re-analysis of the deposited data

Results flagged for a closer look

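In lone colonies the BMP4 response differed between TSC and iPSC, by a test of the difference itself (limma, adjusted p at or under 0.05), in 374 genes, and 68 of the genes named in the text were among them. Their differences (TSC response minus iPSC response, log2 scale), higher in TSC, were Eras 6.49, Duoxa2 5.91, Nr0b1 5.66, Car2 5.45, Pcsk1n 5.41, Inpp1 5.33, Ddah1 5.11, Rpph1 4.88, Prps1 4.59, Fuom 4.58, Mest 4.54, Upp1 4.50, Etv4 4.39, Foxh1 4.39, Zic5 4.38, Tmem98 4.11, Ak1 3.92, Dnmt3b 3.64, Etv5 3.44, Eomes 3.41, Fgf5 3.31, Pmaip1 3.06, Crabp1 3.05, Zfp57 3.0, Fosl1 2.99, Il5ra 2.93, Ubd 2.74, Limd2 2.71, Spry2 2.58, Dusp6 2.56, Lpar6 2.50, Spon1 2.40, Gata1 2.25, Cyp51 2.11, Mboat7 1.84, Nrcam 1.75, Spry1 1.73, Nsdhl 1.69, B2m 1.62, Pcsk2 1.61, Bub1 1.54. Lower in TSC, they were Plac1 -6.13, Dkkl1 -4.52, Elf3 -4.0, Peg10 -3.93, Rab20 -3.79, Krt18 -3.60, Serpinb9b -3.55, Ifi27 -3.50, Efnb1 -3.49, Srsf2 -3.46, Mras -3.39, Isg15 -3.35, Dlx3 -3.05, Gata3 -3.01, Atf3 -2.83, Tfap2c -2.70, Esrp2 -2.68, Evx1os -2.63, Jund -2.48, Krt14 -2.29, Dusp5 -2.28, Mmp14 -1.98, Dnmt1 -1.88, Myc -1.86, Bst2 -1.74, Rsad2 -1.52, Smad2 -1.29. Krt14, a keratin of surface ectoderm, Mmp14, a membrane-bound matrix protease, Cyp51 and Nsdhl, enzymes of cholesterol synthesis, and Esrp2, a splicing factor of epithelia, appear here because lists of the text hold them. The trophoblast-marker sums in iPSC with BMP4 were 424 and 942 FPKM. These sums hold some of the lower-side genes, Plac1 and Krt18 among them, and the part of that RNA in these differences was not tested.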

How the results depend on the processing

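Of 93 recomputed counts of genes past the threshold, 56 stayed within 1.5 times of the main count. For lone TSC against lone iPSC (374, 191 higher and 183 lower), the count was 165 (108 and 57) from the 8 lone libraries only and 56 to 426 when 1 library was left out. Its split moved to 212 higher and 98 lower with a pseudocount of 0.1 and to 264 and 127 with upper quartile scaling, which moved the median of all genes to 0.16. For TSC alone (1625) it was 428 with library weights, 1011 from the lone libraries only and 569 to 1641 with 1 library left out. For iPSC alone (8) it was 3 with a pseudocount of 0.1, 79 without a filter, 132 with weights, 13 from the lone libraries only, 18 without 2 assembled libraries in which markers of both lineages occurred and 3 to 8 with 1 left out. For assembled parts (10) it was 2 with a pseudocount of 0.1, 39 without a filter, 6 with a filter over lone libraries and 4 to 13 with 1 left out. For lone minus assembled (14) it was 32 without a filter, 8 with quantile scaling, 8 without predicted names and 5 to 29 with 1 left out.

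With the replicate number as a block, 331 genes passed for lone TSC against lone iPSC (163 higher and 168 lower), 314 of them among the 374, and 6 and 8 passed for the comparisons with assembled parts. Deviations of same-numbered libraries correlated between -0.054 and 0.049, so the numbers do not pair the libraries.

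The sign of each gene list's median given in the text, of the difference and of the response in each lineage, held with quantile scaling, with upper quartile scaling and without predicted names. No named gene that passed changed sign. Genes that had not passed did. With 1 library left out, Id1 ran from -3.55 to 0.15, Pou5f1 from -0.15 to 0.82, Nanog from -0.70 to 0.23, Cdx2 from -1.79 to 0.50 and Bmpr2 from -0.54 to 0.26. Smad6 was -0.30 and Bmpr2 0.19 with a pseudocount of 0.1. The cause of these changes was not tested. With groups of 2, the simulation found 5 of the 67 genes changed 2-fold, 41 of the 67 changed 4-fold and 51 of the 66 changed 8-fold. These genes all had a simulated untreated level of about 5 FPKM or more in lone TSC, and the simulated spread of a gene was the same in all groups.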

Other observations

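Genes on the X chromosome took a larger share of the genes that passed than of those tested, in lone colonies. They were 33 of 365 with an annotated chromosome (9.04%), 15 with the higher response in TSC and 18 with the lower, against 579 of 13050 tested genes (4.44%). Eras, Nr0b1, Prps1 and Pcsk1n on the higher side and Plac1 and Efnb1 on the lower side are X-linked. Xist stood at 4.17 and 3.15 FPKM in TSC with BMP4 and at 12.7 and 9.94 in TSC, and the part of the X chromosome's state was not tested.

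All 31 tested genes of cytosolic ribosomal proteins had positive differences, with a median of 0.54, and limma called 0 of them. Their summed level was 88993 and 57044 FPKM in TSC with BMP4 and 43543 and 51140 in TSC. The median difference was 0.26 without replicate 1 of TSC with BMP4 and 0.85 without replicate 2, so its size depended on single libraries. All 31 were positive also with quantile and upper quartile scaling. The list of hypoxia and glycolysis had a median difference of 0.59 over 26 genes and cholesterol synthesis one of 0.73 over 22, against -0.017 over all genes. The share of FPKM in mitochondrial genes, at 1.29% and 3.53% in TSC with BMP4 and 7.81% and 4.57% in TSC, differed between the same groups, and its part in these shifts was not tested.

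A single predicted gene, Gm14039, was listed at 31765 FPKM in replicate 1 of TSC with BMP4. Of the 374 genes that passed, 25 had predicted, clone-derived or small RNA names and 50 stayed under 5 FPKM in every group mean.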
